A study of Mus musculus with 6 samples.

Results

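Ephrin, Slit-Robo and netrin signals are the classical contact and secreted cues that steer growing axons and migrating neurons. The 40 genes described here are those of the deposited table whose symbols name Eph receptors, ephrins, Slits, Robo receptors, netrins, netrin-G proteins, Unc5 receptors, Dcc or neogenin (Neo1), out of 34745 genes in all. RNA-seq counts came from dissected medial ganglionic eminence (MGE), a ventral forebrain zone that produces cortical interneurons and pallidal neurons, at embryonic day 12.5. The groups were 3 Sp9 null (Sp9-/-) samples and 3 wild type littermate samples, all on a mixed background of C57BL/6J, 129S6 and CD1. Sp9 encodes a zinc finger transcription factor of the Sp family. The labels call the mutants null and name no conditional driver. The labels do not say whether a sample was 1 embryo or a pool, so the p-values describe only how these samples vary, and some of that variation may be technical.

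Eph receptors are tyrosine kinases bound by ephrins on neighbouring cells: ephrin-As are held by a lipid anchor and ephrin-Bs span the membrane, and contact usually repels the cell or growth cone that carries the receptor. Slits are secreted repellents read by Robo receptors. Netrin-1 attracts through Dcc and repels where Unc5 receptors take part. In the embryonic ventral forebrain these systems are known for keeping interneurons out of territories such as the striatum and for guiding thalamic and cortical axons through the subpallium.

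Library totals were 6826447 to 10979280 counts, and 3 counts in a library corresponded to 0.273 to 0.439 CPM (counts of a gene scaled to library totals of 1000000). Sp9 itself was at 13.0, 10.6 and 12.5 CPM in the Sp9 null libraries, against 203, 247 and 189 CPM in the wild type libraries, so the labels and the targeted gene matched in all 6 libraries (exact two-sided permutation p = 0.1, the smallest that 3 against 3 allow). The libraries numbered 2 stood apart from the others in both genotypes on the first principal component, which held 51.8% of the variance. They also held fewer transcripts of neighbouring tissue. A list of 10 cortical excitatory markers, of which 4 passed the expression filter, summed to 47.9, 15.4 and 71.9 CPM in Sp9 null replicates 1, 2 and 3, against 33.1, 11.7 and 40.1 CPM in replicates 1, 2 and 3 of the wild type, and none of the 10 was at 0 in all libraries. A list of 8 hypothalamic markers summed to 18.5, 7.29 and 19.4 CPM in the Sp9 null and 10.2, 6.14 and 12 CPM in the wild type libraries. Every MGE marker in a list of 8, Nkx2-1 and Lhx6 among them, passed the expression filter, and together they reached 1635 to 1884 CPM in Sp9 null and 1829 to 1944 CPM in wild type libraries.

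The 40 genes together took 2696, 2310 and 2579 CPM in Sp9 null replicates 1, 2 and 3, against 2615, 2330 and 2523 CPM in replicates 1, 2 and 3 of the wild type. The sums overlapped, and replicate 2 was the lowest of each genotype. Levels of different genes are compared here on the deposited FPKM, which divides by gene length. Epha4 was the most abundant EphA receptor gene, at 33.6, 37.7 and 27.3 FPKM in Sp9 null and 39.3, 45.8 and 33.9 FPKM in wild type libraries, followed by Epha3 at 20.2 to 31.2 FPKM and 18.9 to 22.9 FPKM. Those genes made up 49.7% and 39.5% of the summed EphA FPKM in Sp9 null libraries, against 59.7% and 31.6% in wild type libraries. Ephb1 led the EphB receptors at 14.4 to 15.4 FPKM in Sp9 null and 13.1 to 13.7 FPKM in wild type libraries. Among ligands, Efnb1 exceeded Efnb2, and Efna2 exceeded the other ephrin-A genes, in every library. Slit1, Robo1 and Ntn1 each held most of the FPKM of their class: Slit1 averaged 92.0% and 91.6%, Robo1 79.4% and 75.2%, and Ntn1 69.8% and 73.5% in Sp9 null and wild type libraries. Neo1 was at 20.4 to 25.4 FPKM in Sp9 null and 19.5 to 23.9 FPKM in wild type libraries, above Dcc in every library. Efnb3 was above Efnb1 in replicates 1 and 3 of both genotypes and below it in both replicates 2. At the bottom, Epha6, Slit3 and Ntn5 averaged under 1 CPM and did not pass the expression filter, which left 37 genes tested.

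**Figure D1:**
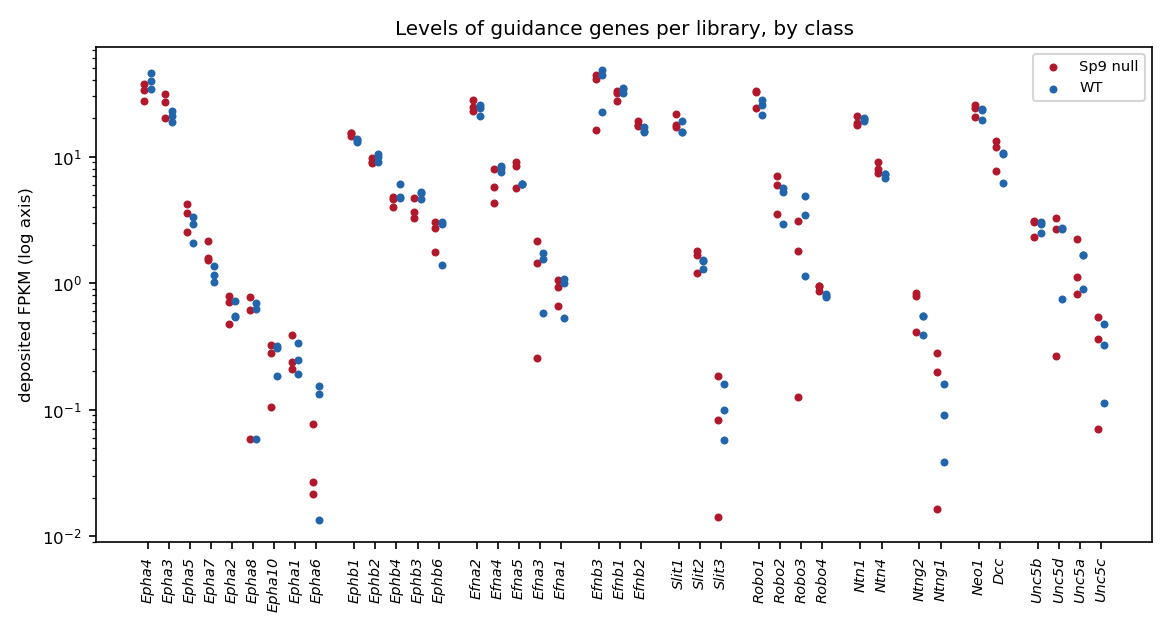
Deposited FPKM (log axis) of 39 guidance genes in each of the 3 Sp9 null (red) and 3 wild type (blue) libraries, grouped by class and ordered by wild type mean; Ntn5, listed at 0 in 4 libraries, is not drawn. Each dot is a library; low dots that stand apart, as for Robo3, Unc5d and Efna3, are replicate 2.

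With genotype as the only term, 0 of the 37 tested genes were called at an adjusted p under 0.05, where 0.147% of all 14929 tested genes were called, 0.0469% higher and 0.1% lower (edgeR quasi-likelihood test, Benjamini-Hochberg adjusted). Unadjusted p lay under 0.05 for 3 of the 37, namely Epha7, Ephb1 and Ephb3, a level reached by 5.91% of all tested genes, and DESeq2 without the block also called 0, beside 0.390% of all genes. Replicate numbers were taken as pairs, since same-numbered libraries deviated together. Numbers 1 and 3 were not separated from each other by this check. With the replicate number as a block, 8 of the 37 were called, 6 higher and 2 lower in the Sp9 null libraries, where 4.0% of all tested genes were called, 2.22% higher and 1.78% lower. Genes with a mean of 30 CPM or more were called more often, at 5.83%, and 7 of the 8 belong to that range, which holds 19 of the 37. The receptor genes Epha3, Epha5, Epha7, Robo1, Robo2 and Dcc rose, and the receptor genes Epha4 and Ephb3 fell. All changes were small, from 1.19-fold to 1.5-fold. By class, the block called 4 of 8 EphA, 1 of 5 EphB and 2 of 4 Robo genes, Dcc but not Neo1, and 0 of 4 Unc5 genes. It called 0 of 5 ephrin-A, 3 ephrin-B, 2 Slit, 2 netrin and 2 netrin-G genes. The difference between receptors and ligands was not tested. The median log2 fold change (Sp9 null over wild type) of the 37 was 0.11, and 0.09 with the block, beside -0.005 and -0.007 over all tested genes. In these dissected tissues a change in the share of cells and a change in RNA per cell cannot be told apart.

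**Figure D2:**
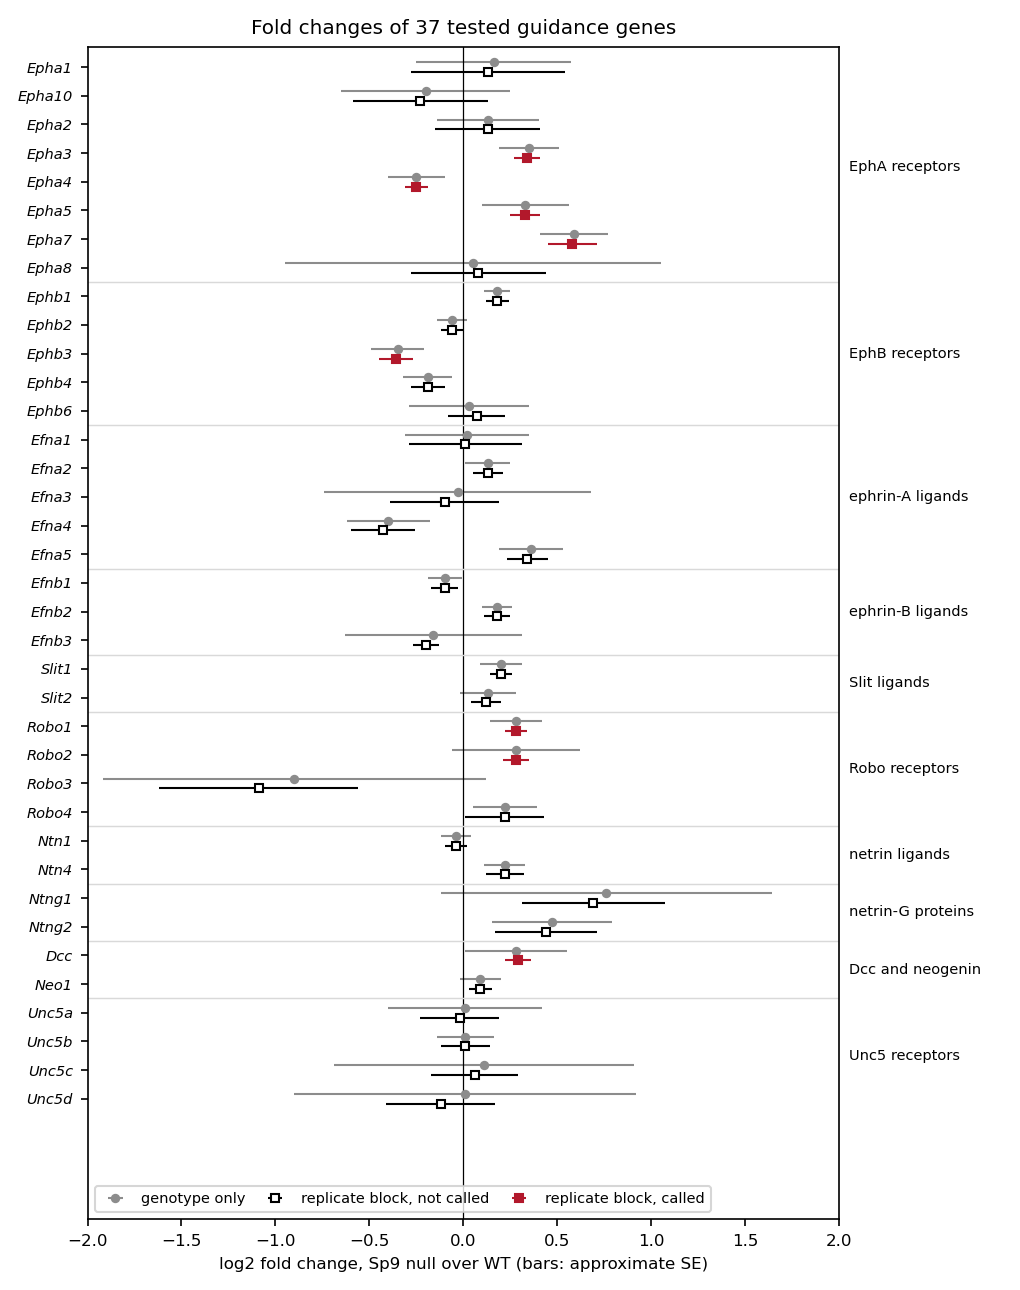
Log2 fold changes, Sp9 null over wild type, of the 37 tested guidance genes by class, with bars of 1 approximate SE. Grey circles are the fit with genotype only and squares the fit with the replicate block; the 8 red squares are the called genes, and bars shrink most for genes that differ between replicates, such as Robo2 and Efnb3.

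The blocked calls depended on pairs 2 and 3 and on the fit. Without pair 2, the libraries that stand apart, 1 of the 37 was called by the blocked fit (Robo3), where 0.836% of all tested genes were; none of the 8 kept its call. Without pair 3, 1 was called (Epha3), and without pair 1, 10 were called, all 8 among them, where 1.45% and 7.89% of all tested genes were. DESeq2 with the block called 1 (Epha4), beside 0.844% of all genes. The sign of each of the 8 changes was the same in every same-numbered pair, which the blocked fit favours, and under every alternative. Over all 37 guidance genes 17 (45.9%) had the same sign in all 3 pairs, beside 38.3% of all tested genes.

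Promoter sequences are shown for the falling Epha4 and Ephb3 and the rising Epha3 and Robo1, because Sp factors are known to bind GC boxes and these genes moved in opposite directions. They are the 250 bases before the annotated start (RefSeq, GRCm38.p6), 5′ to 3′ on the strand of the gene, with each GC box in capitals (GGGCGG or, on the other strand, CCGCCC). They lie at chr1:77515089-77515338 (minus strand) for Epha4, chr16:21204545-21204794 (plus) for Ephb3, chr16:63864176-63864425 (minus) for Epha3 and chr16:72662899-72663148 (plus) for Robo1.
Epha4: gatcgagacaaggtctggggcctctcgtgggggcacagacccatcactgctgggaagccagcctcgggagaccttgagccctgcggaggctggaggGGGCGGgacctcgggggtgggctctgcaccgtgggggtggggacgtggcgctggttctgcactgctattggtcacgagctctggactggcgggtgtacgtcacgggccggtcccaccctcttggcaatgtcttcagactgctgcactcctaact
Ephb3: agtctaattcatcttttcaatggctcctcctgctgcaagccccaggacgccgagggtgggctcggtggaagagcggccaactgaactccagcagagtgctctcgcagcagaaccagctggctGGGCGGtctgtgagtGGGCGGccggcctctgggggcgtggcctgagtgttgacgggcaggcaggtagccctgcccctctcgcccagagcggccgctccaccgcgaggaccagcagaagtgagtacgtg
Epha3: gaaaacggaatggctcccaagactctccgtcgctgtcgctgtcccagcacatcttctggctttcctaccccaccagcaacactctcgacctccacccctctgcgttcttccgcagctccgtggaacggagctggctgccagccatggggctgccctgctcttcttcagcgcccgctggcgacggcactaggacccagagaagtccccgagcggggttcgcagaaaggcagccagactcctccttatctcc
Robo1: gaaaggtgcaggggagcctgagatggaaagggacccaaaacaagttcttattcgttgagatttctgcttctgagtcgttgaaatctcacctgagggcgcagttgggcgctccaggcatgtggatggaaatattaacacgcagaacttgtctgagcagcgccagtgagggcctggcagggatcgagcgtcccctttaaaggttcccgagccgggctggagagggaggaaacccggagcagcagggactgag
Epha4 held 1 GC box and Ephb3 held 2, while Epha3 and Robo1 held 0. Of the other risen genes Epha5 held 2 and Epha7 held 1 at each of its starts, and Robo2 held 0 at each of 3 starts. The promoter of Dcc was not analysed here. The contrast between falling and rising genes among the 4 printed sequences therefore did not hold for all risen genes. Such a box occurred in 27 of 40 promoters listed for 35 of the guidance genes (67.5%), against 32.7% of all 32851 promoters of the same length, and the median GC content was 64.6% in those 40 and 52.4% in all. The shorter CACCC motif, also bound by Sp and Klf proteins, occurred in 72.5% and 52.0%. A match describes the letters in this window and says nothing of binding.

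Among EphA receptors, 3 rose, 1 fell and 4 of 8 did not pass with the block. Epha3 (chromosome 16, 63543538 to 63864158, GRCm38 as deposited) was at 154, 177 and 114 CPM in Sp9 null replicates 1, 2 and 3, against 117, 130 and 107 CPM in replicates 1, 2 and 3 of the wild type. It was higher in the Sp9 null library of each same-numbered pair, although the groups overlapped. Sp9 null replicate 3 lay below wild type replicate 1, and the pairing did not separate numbers 1 and 3. With the block its log2 fold change came to 0.34 (SE 0.07; adjusted p = 0.00161, edgeR). Epha4 (chromosome 1, 77367185 to 77515088), a promiscuous receptor that binds ephrins of both classes, went the other way, with 419, 471 and 341 CPM in Sp9 null and 490, 573 and 424 CPM in wild type libraries. Each Sp9 null value lay below the wild type value of its pair, by 0.23, 0.28 and 0.31 on the log2 scale, and the blocked change was -0.25 (SE 0.06, edgeR adjusted p = 0.00677). Epha4 kept its call by DESeq2 with the block (adjusted p = 0.0461). Epha3 made up 40.1%, 42.0% and 36.3% of the summed EphA FPKM in Sp9 null libraries, against 31.3%, 31.4% and 32.0% in wild type libraries. These shares did not overlap, but Epha3 and Epha4 held most of the sum, so a lower Epha4 alone raises the Epha3 share. The shares are not separate evidence for a rise of Epha3.

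Epha5 and Epha7 encode receptors known from topographic mapping and cortical development. Epha5 (chromosome 5, 84054761 to 84417382) had 77.2, 55.2 and 92.0 CPM in Sp9 null libraries, against 72.0, 45.3 and 63.5 CPM in wild type libraries, and with the block it rose by 0.33 on the log2 scale (SE 0.08; adjusted p = 0.0142, edgeR). Replicate 2 was the lowest in both genotypes. Epha7 (chromosome 4, 28813131 to 28967499) had 19.0, 18.4 and 25.9 CPM in Sp9 null and 14.1, 12.4 and 16.4 CPM in wild type libraries. It was the only one of the 8 whose groups did not overlap and the one with the largest change, 0.58 (SE 0.13, edgeR adjusted p = 0.00483; 0.59 and adjusted p = 0.635 without the block). Groups without overlap occurred in 5 of the 37 genes (13.5%), close to the 13.0% of all tested genes; the others were Ephb1, Efnb2, Robo4 and Ntn4, all slightly higher in Sp9 null libraries and none called. The remaining EphA genes, Epha1, Epha2, Epha8 and Epha10, averaged under 4 CPM and had blocked log2 fold changes between -0.23 and 0.13.

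Of the 5 EphB receptor genes, which encode receptors for ephrin-Bs, Ephb3 fell and 4 did not pass. Ephb3 (chromosome 16, 21204755 to 21223305) was at 45.3, 31.2 and 34.7 CPM in Sp9 null replicates 1, 2 and 3, against 49.8, 44.1 and 49.4 CPM in replicates 1, 2 and 3 of the wild type. The highest Sp9 null value lay just above the lowest wild type value, and pair 1 differed least. With the block it changed by -0.36 on the log2 scale (SE 0.09; adjusted p = 0.0155, edgeR). Ephb1 had 121, 120 and 113 CPM in Sp9 null and 103, 107 and 108 CPM in wild type libraries, a blocked change of 0.18 (SE 0.06, edgeR adjusted p = 0.127). Ephb2 was at 153 to 167 CPM in Sp9 null and 155 to 178 CPM in wild type libraries, and the approximate 95% interval of its blocked change ran from -0.18 to 0.06. Ephb4, a receptor of venous endothelium, had 36.8 to 43.7 CPM in Sp9 null and 42.9 to 56.1 CPM in wild type libraries (blocked change -0.19, SE 0.09, edgeR adjusted p = 0.247). The 12 endothelial and pericyte markers summed to 187 to 219 CPM in Sp9 null and 200 to 224 CPM in wild type libraries, and 0 of them were called with the block.

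No ephrin gene passed in either fit. Efna5, which encodes a repellent ephrin-A of the developing striatum, came closest with the block, with 36.2, 24.4 and 39.0 CPM in Sp9 null and 26.1, 26.1 and 26.2 CPM in wild type libraries. Sp9 null replicate 2 did not share the higher level of the other Sp9 null libraries, and the blocked change was 0.34 (SE 0.11, edgeR adjusted p = 0.0938). Efna4 had 12.7, 9.20 and 6.89 CPM in Sp9 null, against 12.1, 13.4 and 12.9 CPM in wild type libraries, a blocked change of -0.43 (SE 0.17, edgeR adjusted p = 0.164); without pair 1 it was -0.67 and called (adjusted p = 0.0214). From base 89337850 to 89338028 its span overlaps that of 4731419I09Rik, with 275 and 318 counts over the Sp9 null and wild type libraries. Without a stated strand setting the counting could have mixed the 2 genes there. The same applies to other members with overlapping spans, among them Epha1 with Zyx, Efna3 with Gm15998, Ephb1 with Gm26846 and Ntng2 with 6530402F18Rik. Efna1, Efna3 and Efna4 are neighbours on chromosome 3, with 32.8 kb between Efna1 and Efna3 and 10.4 kb between Efna3 and Efna4. Their blocked changes of 0.01, -0.10 and -0.43 differed in size, with SEs of 0.30, 0.29 and 0.17. Efnb1 and Efnb2 had narrow intervals, from -0.24 to 0.03 and from 0.04 to 0.32 with the block. Efnb3 was at 131, 51.1 and 141 CPM in Sp9 null and 139, 71.5 and 155 CPM in wild type libraries, lower in the Sp9 null library of each pair, with a blocked change of -0.20 (SE 0.07, edgeR adjusted p = 0.1; called without pair 1, at -0.26 and adjusted p = 0.0285).

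Both forebrain Robo receptors of Slits rose with the block. Robo1 (chromosome 16, 72663149 to 73046095) had 245, 183 and 251 CPM in Sp9 null replicates 1, 2 and 3, against 211, 161 and 195 CPM in replicates 1, 2 and 3 of the wild type. Robo2 (chromosome 16, 73892306 to 74411825) had 139, 82.1 and 164 CPM in Sp9 null, against 130, 68.4 and 122 CPM in wild type libraries. In both genes replicate 2 was the lowest library of each genotype, the groups overlapped, and each pair was higher in the Sp9 null library. The blocked log2 fold changes were both 0.28, with SEs of 0.06 and 0.07 and edgeR adjusted p = 0.00335 for Robo1 and 0.0117 for Robo2. Without the block Robo1 had a change of 0.28 with an SE of 0.14, and Robo2 of 0.28 with an SE of 0.34. The genes lie 0.846 Mb apart on chromosome 16, of whose tested genes 3.52% were called with the block. Robo1 missed the threshold narrowly by DESeq2 with the block (adjusted p = 0.0677) and without pair 2 (0.0711).

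**Figure D3:**
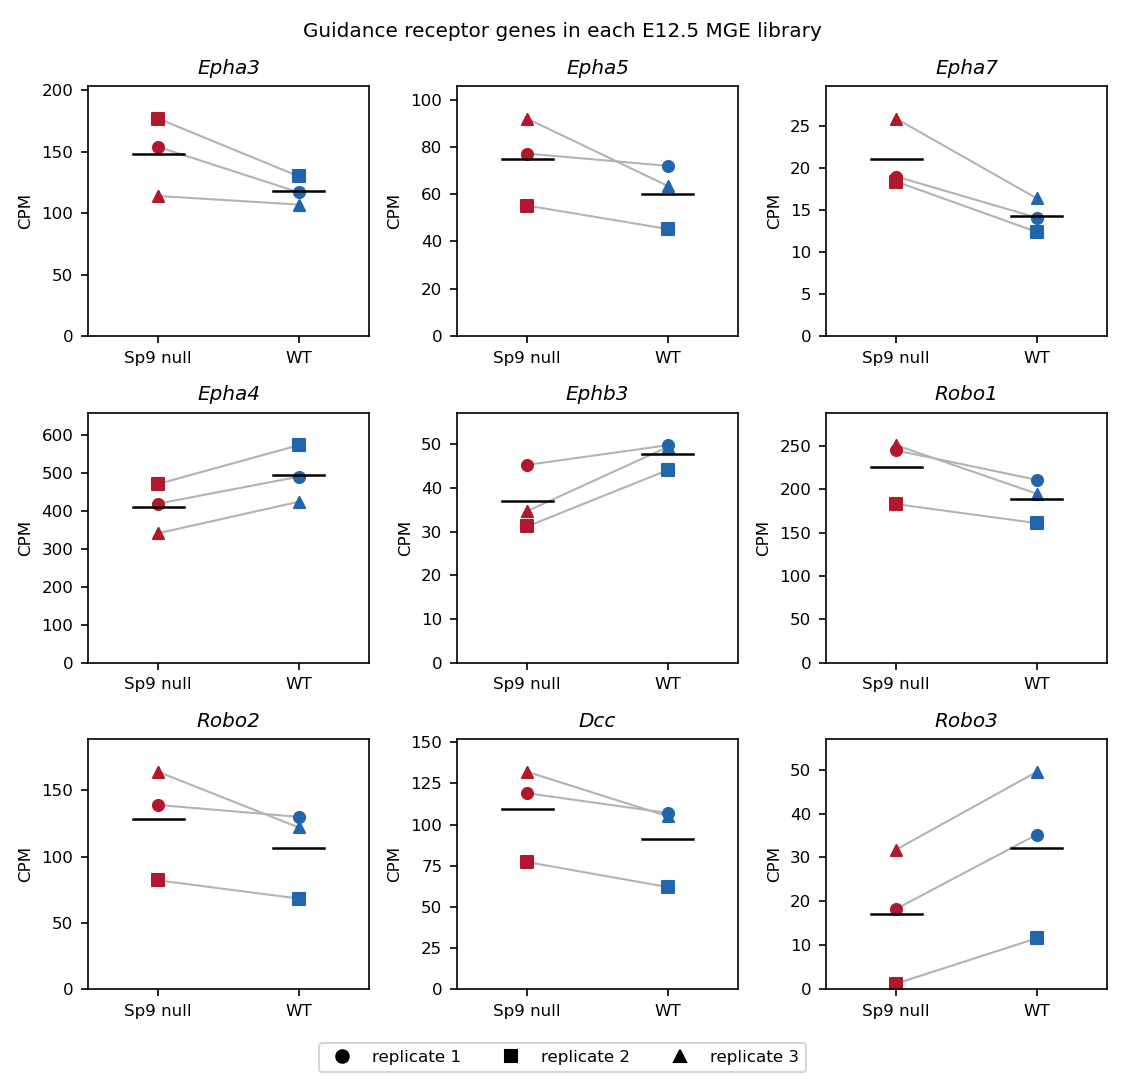
CPM of the 8 receptor genes called with the replicate block, and of Robo3, in Sp9 null (left, red) and wild type (right, blue) libraries; symbols mark the replicate number, grey lines join same-numbered libraries and black bars are means. The grey lines of a gene all slope the same way, while for Epha5, Robo2, Dcc and Robo3 replicate 2 of each genotype lies farther from the other libraries of that genotype than the genotype means lie from each other.

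Robo3, a divergent Robo known for letting commissural axons cross the midline, had the largest log2 fold change in size of the 37 genes and did not pass. Its levels were 18.3, 1.28 and 31.8 CPM in Sp9 null replicates 1, 2 and 3, against 35.2, 11.6 and 49.5 CPM in replicates 1, 2 and 3 of the wild type. The Sp9 null library was the lower in each pair, by 0.93, 2.77 and 0.63 on the log2 scale, on 14 counts in Sp9 null replicate 2. Its fitted change on the log2 scale was -0.90 (SE 1.02; adjusted p = 0.951, edgeR), and -1.09 with the block (SE 0.53, adjusted p = 0.496). Without pair 2 the blocked change was -0.75 and passed (edgeR adjusted p = 0.0125). Robo3 was low in the replicates 2, as were the cortical and hypothalamic markers; between genotypes those marker sums were higher in the Sp9 null library of each pair, whereas Robo3 was lower. Their part in the Robo3 difference was not tested. Robo4, an endothelial Robo whose span ends 1646 bases from that of Robo3 on chromosome 9, was at 6.74, 6.10 and 6.68 CPM in Sp9 null and 5.66, 5.50 and 5.85 CPM in wild type libraries (blocked change 0.22, SE 0.21, edgeR adjusted p = 0.635).

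The Slit ligands did not pass. Slit1 had 168, 133 and 138 CPM in Sp9 null replicates, against 147, 120 and 121 CPM in wild type replicates, and was higher in each pair by 0.15 to 0.19 on the log2 scale (blocked change 0.20, SE 0.06, edgeR adjusted p = 0.0597). Slit2 was at 43.3 to 64.2 CPM in Sp9 null and 46.4 to 54.7 CPM in wild type libraries, with a blocked 95% interval from -0.04 to 0.29.

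Dcc, the attractive netrin receptor, rose with the block, and netrin-1 itself did not pass. Dcc (chromosome 18, 71258738 to 72351069) had 119, 77.2 and 132 CPM in Sp9 null replicates 1, 2 and 3, against 107, 62.0 and 105 CPM in replicates 1, 2 and 3 of the wild type. Pairs differed by 0.16, 0.31 and 0.33 on the log2 scale, all higher in the Sp9 null library, and replicate 2 was lowest in both genotypes. The blocked change was 0.29 (SE 0.07, edgeR adjusted p = 0.00843). Its relative Neo1, a receptor of netrins and of repulsive guidance molecules, was at 177, 151 and 187 CPM in Sp9 null and 177, 144 and 171 CPM in wild type libraries (blocked 95% interval -0.03 to 0.21). Ntn1 had 146, 129 and 124 CPM in Sp9 null and 134, 142 and 139 CPM in wild type libraries, and its interval ran from -0.17 to 0.08. Ntn4, a netrin of basement membranes, had 31.2 to 38.6 CPM in Sp9 null and 28.7 to 30.9 CPM in wild type libraries, a blocked change of 0.22 (SE 0.10, edgeR adjusted p = 0.236). Ntng1 and Ntng2, membrane-anchored netrin-Gs that bind synaptic adhesion partners rather than Dcc, averaged 2.75 and 4.76 CPM in Sp9 null and 1.59 and 3.47 CPM in wild type libraries and did not pass.

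The 4 Unc5 genes, whose products convert the netrin response to repulsion, had log2 fold changes between 0.01 and 0.11 without the block and between -0.12 and 0.06 with it. Unc5b was the steadiest, at 18, 13.6 and 17.9 CPM in Sp9 null and 17.9, 14.6 and 17.2 CPM in wild type libraries. Unc5d had 23.7, 2.37 and 28.9 CPM in Sp9 null, against 24.2, 6.69 and 23.8 CPM in wild type libraries. The spread of Unc5d between replicates thus exceeded that between genotypes. Its 95% interval ran from -0.69 to 0.44 with the block and from -1.78 to 1.80 without it.

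In replicate 2 of both genotypes, 7 of the 37 tested genes (18.9%) were at 0.5 or less of the mean of replicates 1 and 3, against 4.25% of all tested genes with such a ratio. They were Efna3, Efnb3, Epha8, Ntng1, Robo3, Unc5c and Unc5d. Robo3 reached 0.0509 of that mean in Sp9 null and 0.275 in wild type libraries, Unc5d 0.0899 and 0.279, and Epha8 0.0837 and 0.0890. Epha3 and Epha4 ran the other way, at 1.32 and 1.24 in Sp9 null and 1.16 and 1.25 in wild type libraries. Pan-neuronal markers were also lower in replicate 2, with 2449 CPM in Sp9 null and 2944 CPM in wild type libraries against 3740 to 4118 and 4025 to 4088 CPM in the others, and radial glia markers higher, with 3776 and 3775 CPM against 2823 to 3202 and 3009 to 3120 CPM. Their part in these differences was not tested.

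**Figure D4:**
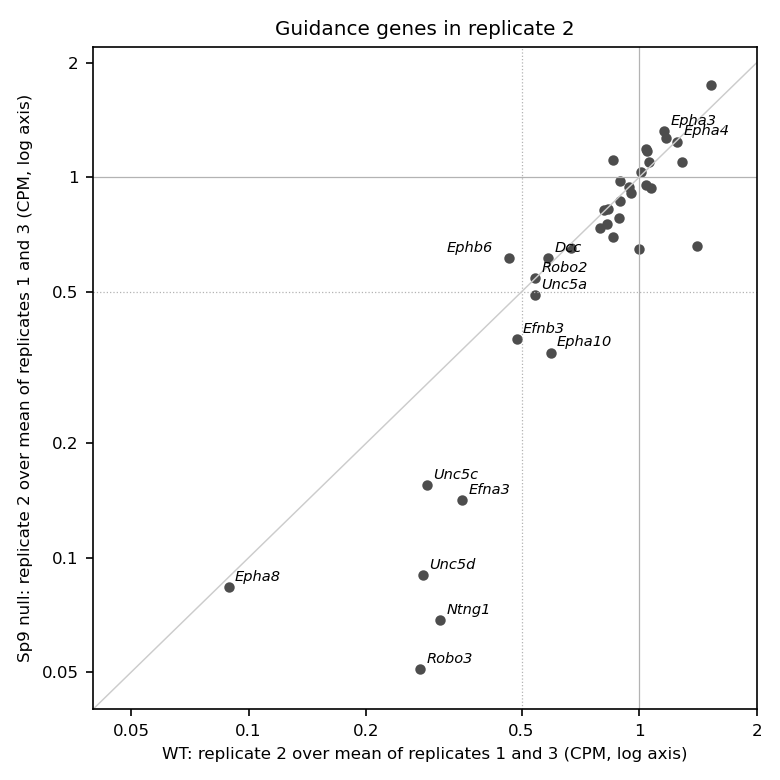
CPM of replicate 2 over the mean of replicates 1 and 3, for each tested guidance gene in Sp9 null (y axis) and wild type (x axis) libraries, both on log axes. Dotted lines mark 0.5. Robo3, Ntng1, Unc5d, Unc5c, Efna3, Epha8 and Efnb3 lie in the lower left, and Epha3 and Epha4 lie above 1 in both genotypes.

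Markers of other cells moved with genotype as well. With the block, 6 of 12 markers of the lateral ganglionic eminence and striatum were called higher and 0 lower, although 4 of the 12 had negative changes. Of all tested genes 4.0% were called by that fit. The 12 markers summed to 623, 627 and 695 CPM in Sp9 null against 567, 487 and 586 CPM in wild type libraries. Of 8 MGE markers, Lhx6, Nkx6-2 and Maf fell with the block, while 2 of the 8 had positive changes and were not called. A list of 9 microglial markers summed to 8.17 to 14.2 CPM in Sp9 null and 31.7 to 36.0 CPM in wild type libraries, and 6 of the 8 tested fell. Of the cortical excitatory markers Tbr1 rose with the block, by 0.81 on the log2 scale. In pair 2 Tbr1 was lower in the Sp9 null library, on 1 count against 7, and without the block its SE was 1.51. Of 10 pan-neuronal markers Tubb3 and Stmn3 fell with the block while Elavl4 rose. No marker of any list was called by edgeR with genotype as the only term and all 6 libraries under the main filter; DESeq2 without the block called Lhx6, Maf, Cx3cr1, P2ry12 and Csf1r. The part of these cells in the receptor changes was not tested.

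Other genes of the same pathways were taken from lists. Of 71 listed effectors, alternative ligands and modifiers, 70 were tested; 0 were called without the block, with 3 at an unadjusted p under 0.05 and 1 (Magel2) called by DESeq2, and 3 rose and 1 fell with the block, a share near that of all tested genes (4.0%, and 5.83% at 30 CPM or more). Pak3, a kinase that acts below Rac and Cdc42, was at 166, 151 and 188 CPM in Sp9 null and 126, 126 and 150 CPM in wild type libraries, with a blocked change of 0.35 (SE 0.06, edgeR adjusted p = 0.000238). Pak3 did not overlap between genotypes and was called with each pair left out in turn. Rgmb, a neogenin ligand, fell by 0.43 on the log2 scale with the block (edgeR adjusted p = 0.00311) and lost its call without pair 2. Magel2 rose by 0.92 with the block (edgeR adjusted p = 3.31e-13); it stood in the list of netrin effectors but is better known as an imprinted partner of ubiquitin ligases. None of the 10 Slit-Robo effectors, the 11 Eph effectors or the 11 genes of heparan sulphate synthesis and receptor cleavage was called in either fit.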

How the data were processed

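Counts and FPKM values per gene of 34745 mouse genes in 6 libraries were used as the authors deposited them in 1 table. TopHat, Cufflinks 2.1.1 and GRCm38.p4 are named in the submitters' processing notes, without their roles; the sources used here do not give the counting program or its strand setting. FPKM, also deposited by the authors, equalled the count divided by library size and 1 fixed length per gene, within a relative 0.001, for 21180 of 21180 genes counted in at least 2 libraries; FPKM served only to compare levels between genes. Counts were tested with edgeR 4.0.16 in R 4.3.3 (TMM factors, filterByExpr with a minimum count of 10 and a minimum total of 15, robust quasi-likelihood fit, genotype as the only term), with p adjusted by Benjamini-Hochberg over 14929 genes and a threshold of 0.05. SEs and 95% intervals are approximate, from the F statistic. The fit was tested on simulated data. Pair differences used log2(CPM + 0.5).

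Same-numbered libraries deviated together from their genotype means (correlations 0.336, 0.729 and 0.535 across genes, all above the 0.1 set for pairing), so results with the replicate number as a block are given beside the others. The pairing comes from the data and not from the labels. Numbers 1 and 3 were not separated by this check, with cross correlations of 0.23 and 0.354. Replicates differed by more than counting noise, and floors of 3 counts cover counting error only. DESeq2 1.42.0, other size factors, no filter, and leaving out each library or pair were the alternatives. Genes named are the guidance genes, chosen by symbol, and those called in the list of associated pathway genes; marker genes are given by list, with some named after their values were seen. Members and lists were chosen with earlier results of these data known. The result of 1 called pathway gene is not reported here.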

Additional observations from a re-analysis of the deposited data

How the results depend on the processing

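The number of guidance genes called depended on the replicate block: 0 without it and 8 with it, 10, 1 and 1 with it and without pair 1, 2 or 3, and 1 by DESeq2 with the block. No call arose under RLE size factors, without the low-count filter, by DESeq2 without the block or with any 1 library left out. Over all genes the count was 22, against 597 with the block, 65 without the filter, 89 by DESeq2, 158 by DESeq2 with the block, 2 to 34 with 1 library left out, 1193, 126 and 219 with the block and without pair 1, 2 or 3, and 0, 89 and 2 without those pairs and without the block. The associated genes had 0 calls, against 4 with the block, 1 by DESeq2, 2 by DESeq2 with the block, 8, 2 and 4 with the block and without pair 1, 2 or 3, and 1 without pair 2 and without the block. Sp9 kept its direction throughout and ranged from -4.21 to -4.01 with 1 library left out; without pair 1 and without the block it was -4.21 and missed the threshold (edgeR adjusted p = 0.119). The cause of these differences was not tested. Of 37 guidance genes, 14 changed sign in at least 1 alternative, none of them called. With the block, Unc5a was -0.02 and Unc5d -0.12, and by DESeq2 with the block Unc5a was -0.05, Unc5c -0.02 and Unc5d -0.34; by DESeq2 without it Efna3 was 0.0. Without pair 1, Epha2 was -0.06 in both fits, Efna1 -0.37 with and -0.35 without the block, Unc5d -0.18 with it and Epha8 -0.01 without it. Without pair 2, both fits gave Epha2 -0.03, Ephb6 -0.05 and Efna3 0.13. Without pair 3, Ephb2 was 0.01 with and 0.0 without the block, Ntn1 0.0 and 0.01, Unc5a -0.34 and -0.39, Unc5d -0.48 and -0.28, Unc5b -0.03 and Unc5c -0.47 in both, and Efna3 0.01 without it. With 1 library left out in turn, values on both sides of 0 ran from -0.2 to 0.4 for Epha1, -0.55 to 0.18 for Epha10, -0.49 to 0.62 for Epha8, -0.25 to 0.23 for Ephb6, -0.23 to 0.21 for Efna1, -0.58 to 0.49 for Efna3, -0.43 to 0.18 for Efnb3, -0.1 to 0.01 for Ntn1, -0.53 to 0.29 for Unc5a, -0.07 to 0.13 for Unc5b, -0.53 to 0.61 for Unc5c and -0.53 to 0.56 for Unc5d. Genes near the floor, such as Epha8 and Ntng1 with 3 counts in Sp9 null replicate 2, carry little information at this depth.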

Other observations

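Of the 40 guidance genes, 5 lie on chromosome 16, and the 4 of them that were tested, Epha3, Ephb3, Robo1 and Robo2, were all called with the replicate block, 3 higher and 1 lower in the Sp9 null libraries. Of all 455 tested genes of that chromosome 3.52% were called by the same fit. Epha3 and Robo1 are 8.8 Mb apart, and Ephb3 and Epha3 42.3 Mb. The chromosome was singled out after these values were seen.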
